A study of Mus musculus with 20 samples.

Results

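The 3 microRNAs (miRNAs) described here, out of 1226 detected in the series, are miR-33-5p, miR-378a-3p and miR-148a-3p. A deposited sequence of 18 to 26 nt was counted for one of them when it matched the named arm of the annotated mouse hairpin exactly. The level is given in counts-per-million units (CPM) of the library's miRNA reads. The rule names the miRNAs in advance, so none of their measured values was used to choose them, but they were picked because of what they are known for, with earlier results of these data in view.

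The series holds 20 small RNA libraries from bone marrow cultures of mice aged 8 to 12 weeks, 1 per combination of cell type, genotype and stimulus. Macrophages had been grown with M-CSF and dendritic cells with GM-CSF, both from hybridoma supernatant. The knockout was the miR-155 deletion strain B6.Cg-Mir155tm1.1Rsky/J (mir-155-/-), in which every cell lacks the miRNA, and the wild type was C57BL/6. Each of the 4 cultures (knockout macrophages, wild-type macrophages, knockout dendritic cells and wild-type dendritic cells) was sampled with LPS, with oxLDL, with eLDL, with LDL and without stimulus. LPS is a bacterial cell wall component that activates both cell types, and LDL is the lipoprotein that carries cholesterol in blood. Dendritic cells were matured with 200 ng/ml LPS overnight at day 8 to 9. The sources used here give no lipoprotein doses and, for macrophages, neither the LPS dose nor its duration.

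A miRNA guides a silencing complex to messenger RNAs that pair with its seed, bases 2 to 8 from the 5′ end, and so lowers their translation and stability. The 3 miRNAs are known regulators of lipid handling. miR-33 lies within an intron of Srebf2, the gene of a transcription factor that turns on cholesterol synthesis and uptake, and it represses Abca1, the pump that exports cholesterol from macrophages. miR-148a represses the LDL receptor and Abca1 in liver cells. miR-378a lies within an intron of Ppargc1b, a coactivator of mitochondrial genes, and is known for its part in the control of fatty acid oxidation and energy use.

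On GRCm38, the Mir33 hairpin lies at chr15:82198122-82198190 on the plus strand, in an intron of Srebf2 on the same strand. Mir148a lies between genes at chr6:51269812-51269910 on the minus strand. Mir378a lies in an intron of Ppargc1b on the same strand, and a second annotated miRNA gene, Gm25301, overlaps it on the other strand. The mature sequences of the first 2 miRNAs are shown with their other arms, and beside miR-148a-3p those of miR-148b-3p and miR-152-3p, which carry the same seed and so can pair with the same sites. They come from RefSeq (GRCm38.p6), with the seed in capitals.
miR-33-5p: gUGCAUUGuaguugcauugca
miR-33-3p: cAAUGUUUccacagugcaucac
miR-148a-3p: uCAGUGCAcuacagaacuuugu
miR-148b-3p: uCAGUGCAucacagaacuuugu
miR-152-3p: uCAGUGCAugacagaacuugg
miR-148a-5p: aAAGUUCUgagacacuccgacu

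miR-33-5p and the miR-148 family share no seed. The deposited reads followed these sequences closely. miR-33-5p was read in 4 forms, all with the annotated 5′ end. The full 21 nt form held 52.6% of its 2871 reads over the 20 libraries and the 20 nt form, which lacks the last base, held 39.0%. miR-148a-3p was read in 26 forms, of which the 22 nt form of RefSeq held 70.2% of 2112543 reads and the form 1 base longer 21.6%. miR-378a-3p had 1458289 reads in 29 forms. Of these reads, 6.75% also matched miR-378b or miR-378c and were counted in full for miR-378a-3p. Reads that matched miR-378c alone numbered 1 to 55 per library. Those that matched miR-378b alone numbered 32 to 105 in macrophage libraries and 0 to 21 in dendritic cell libraries.

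Libraries held 5068171 to 11780814 miRNA reads, which were 42.3 to 63.4% of all reads, and 3 reads correspond to 0.255 to 0.592 CPM. miR-155-5p checked the genotype: it was at 3.93 to 5.89 CPM in knockout macrophages against 5349 to 39831 CPM in wild-type macrophages, and at 0.312 to 0.790 CPM in knockout dendritic cells against 129 to 9590 CPM in wild-type dendritic cells. The myeloid marker miRNAs (miR-223-3p, miR-142a-3p and miR-142a-5p) summed to 21552 to 32396 CPM in macrophages and 16786 to 26275 CPM in dendritic cells. Most of this was miR-142a-5p, at 18341 to 29943 CPM in macrophages and 13815 to 23192 CPM in dendritic cells. The miR-142a arms were called higher in macrophages and miR-223-3p lower (log2 difference -0.46, edgeR, adjusted p = 1.13e-06). miR-223-3p was also called lower in knockout macrophages and with LPS in both cell types, as given below with the lipid list. No miRNA separates macrophages from dendritic cells by definition, so that label was not checked beyond this. Of the marker lists for other tissues, the muscle miRNAs summed to at most 1.41 CPM in any library and the epithelial ones to at most 159 CPM. The whole liver and serum list reached 1037 CPM, although its member miR-122-5p had at most 4.59 CPM. The erythroid list reached 1996 CPM, the stromal list 284 CPM and the lymphoid marker 168 CPM, so the libraries were not free of such miRNAs. Macrophage libraries carried an unread base in 6.84 to 7.18% of their reads, at least 98.6% of these at base 20, and dendritic cell libraries in 0.125 to 0.133%. The cell types therefore differ in a sequencing feature as well, and cell type and sequencing cannot be told apart. Among the 10 macrophage libraries, unstimulated knockout and LDL-treated wild-type macrophages stood apart: 0.371% and 0.361% of their miRNA reads were 19 nt long, against 0.957 to 1.43% in the other 8. Dendritic cell libraries had 0.406 to 0.645%, so the other 8 macrophage libraries had the highest shares of the series. This share thus also parts most macrophage libraries from dendritic cells. Values without unstimulated knockout and without LDL-treated wild-type macrophages are given beside the results that rest on them.

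miR-148a-3p and miR-378a-3p were among the abundant miRNAs of both cell types and miR-33-5p was rare. By mean CPM, miR-148a-3p ranked 12 in macrophages and 23 in dendritic cells. miR-378a-3p ranked 19 in macrophages and 27 in dendritic cells, and miR-33-5p ranked 200 and 232 in the same order. Each molecule gives 1 read whatever its length, so these levels need no length correction, but differences in cloning efficiency between miRNAs were not corrected.

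**Figure D1:**
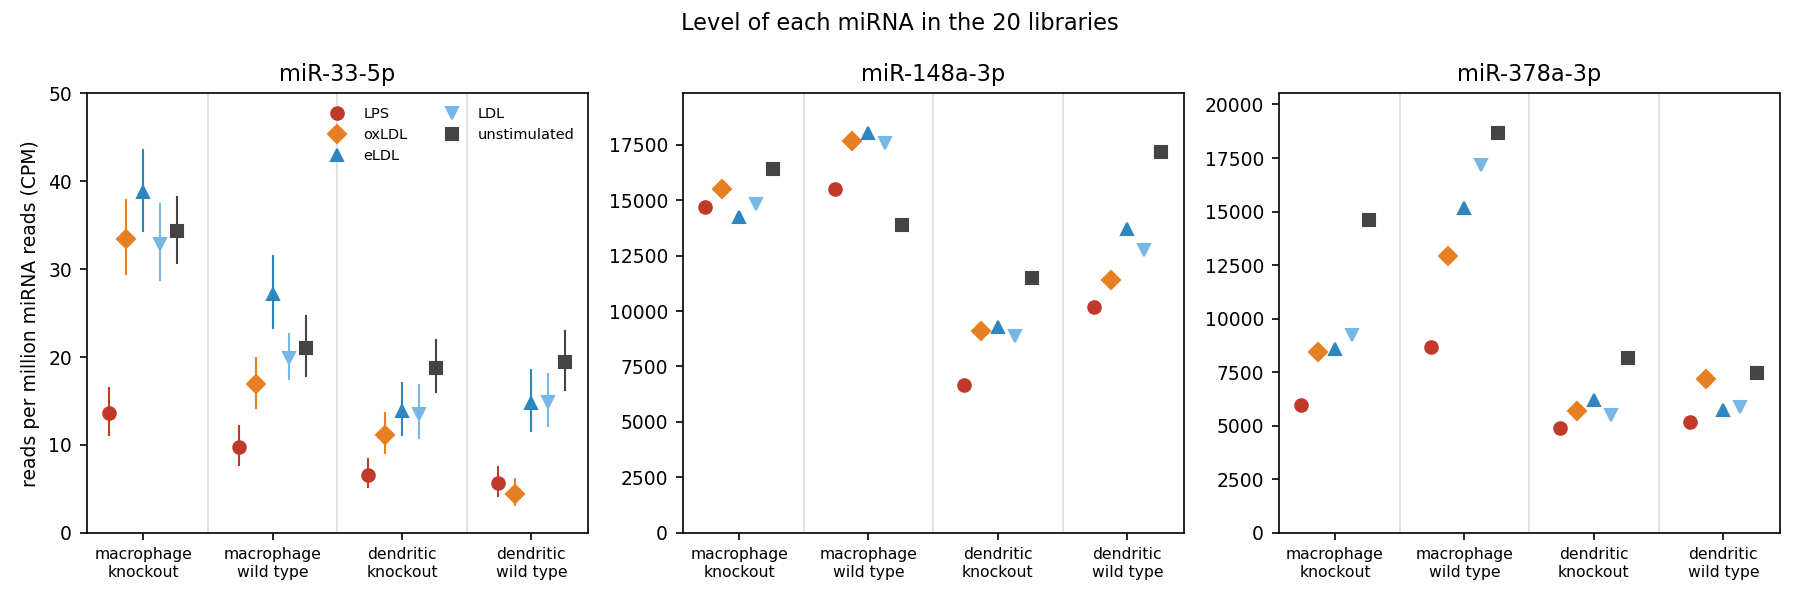
Level in CPM of miRNA reads (linear axes from 0) of each miRNA, 1 point per library, by culture and stimulus; bars on miR-33-5p are exact 95% Poisson intervals. All miR-33-5p values under LPS lie at or below 13.6 CPM, and miR-378a-3p spans 5949 to 18648 CPM in macrophages but 4909 to 8156 CPM in dendritic cells.

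All 3 miRNAs were higher in macrophages than in dendritic cells. miR-33-5p ranged from 9.78 CPM through a median of 24.1 to 38.8 CPM in the 10 macrophage libraries, against 4.45 CPM through a median of 13.7 to 19.4 CPM in the 10 dendritic cell libraries. The groups overlap, yet in each of the 10 pairs matched for genotype and stimulus the macrophage library was higher, by 1.08 to 3.80 times. miR-378a-3p ranged from 5949 CPM through a median of 11079 to 18648 CPM in macrophages, against 4909, 5790 and 8156 CPM in dendritic cells, and was also higher in 10 of 10 pairs, by 1.21 to 2.93 times. miR-148a-3p ranged from 13895 CPM through a median of 15501 to 18010 CPM in macrophages, against 6648, 10799 and 17159 CPM in dendritic cells. It was higher in 9 of 10 pairs, and the exception was the unstimulated wild-type pair, with 13895 CPM in macrophages and 17159 CPM in dendritic cells, a ratio of 0.810.

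edgeR's quasi-likelihood test with Benjamini-Hochberg adjustment over 376 miRNAs called all 3, in a comparison in which 79% of the miRNAs tested were called. The log2 difference was 1.11 ± 0.14 (SE) for miR-33-5p (adjusted p = 1.59e-06), 0.97 ± 0.08 for miR-378a-3p (adjusted p = 6.63e-09) and 0.66 ± 0.06 for miR-148a-3p (adjusted p = 8.75e-08). With so many miRNAs called, a call here says little about these 3. Without unstimulated knockout or without LDL-treated wild-type macrophages, the libraries that stood apart, the differences were 1.09 and 1.14 for miR-33-5p, 0.92 and 0.97 for miR-378a-3p and 0.59 and 0.67 for miR-148a-3p, all called. An exact two-sided sign-flip test over the 10 pairs gave p = 0.00195, the smallest it can give, for miR-33-5p and miR-378a-3p (adjusted over 9 such tests p = 0.00879) and p = 0.00391 for miR-148a-3p (adjusted p = 0.0117). The 10 pairs reuse the same cultures under each stimulus, so they cannot be taken as independent, which this test assumes. Its p-values do not measure the spread between mice or cultures. The lymphoid marker miR-150-5p moved with cell type as well, at 63.5 to 168 CPM in macrophages and 6.23 to 24.2 CPM in dendritic cells. The liver and serum list did too, at 501 to 1037 CPM summed in macrophages against 207 to 289 CPM in dendritic cells. The erythroid list was lower, at 414 to 723 CPM in macrophages against 1235 to 1996 CPM in dendritic cells, and the epithelial list higher, at 75.6 to 159 CPM against 37.2 to 73.3 CPM. Of the 2 stromal markers tested, 1 was called lower in macrophages, with a list range of 0.849 to 283 CPM against 22.2 to 284 CPM. The endothelial and megakaryocyte marker was not called and had at most 8.91 CPM in macrophages and 9.28 CPM in dendritic cells. The part of these lists in the result was not tested.

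The relatives of miR-148a-3p did not all follow it. miR-148b-3p, which differs from miR-148a-3p only outside the seed, had 3829 to 6403 CPM in macrophages and 1968 to 3284 CPM in dendritic cells, without overlap, and a log2 difference of 1.19 ± 0.06 (edgeR, adjusted p = 2.51e-11). miR-152-3p went the other way, at 155 to 235 CPM in macrophages and 290 to 582 CPM in dendritic cells, also without overlap, with a log2 difference of -1.05 ± 0.07 (edgeR, adjusted p = 1.28e-09). Without unstimulated knockout or without LDL-treated wild-type macrophages these differences were 1.14 and 1.21 for miR-148b-3p and -1.04 and -0.99 for miR-152-3p, all called. In every library miR-148a-3p held most reads of this seed.

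The other arms of the hairpins, usually degraded after processing, were low. miR-148a-5p held 0.296 to 0.798% of its hairpin's reads and miR-378a-5p 0.126 to 0.231%. Both were higher in macrophages, by a log2 difference of 1.15 ± 0.11 for miR-148a-5p (edgeR, adjusted p = 9.79e-08) and 1.03 ± 0.14 for miR-378a-5p (edgeR, adjusted p = 4.37e-06). The pair of arms of one hairpin come from 1 precursor and are not independent. miR-33-3p, which has a seed of its own, had 0.654 to 5.10 CPM in macrophages and 0 to 3.27 CPM in dendritic cells and was too low to be tested.

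Between knockout and wild type, miR-378a-3p and miR-33-5p were called in macrophages and miR-148a-3p in dendritic cells. The difference itself differed between the cell types past the threshold for miR-378a-3p. The labels name no separate mice or cultures within a genotype, so genotype and culture cannot be told apart in these comparisons. In macrophages, miR-378a-3p was lower in the knockout under every stimulus. It had 5949 CPM with LPS, 8452 CPM with oxLDL, 8572 CPM with eLDL, 9220 CPM with LDL and 14609.7 CPM without stimulus in knockout macrophages, against 8672, 12938, 15172, 17152 and 18648 CPM in wild-type macrophages in the same order. The ranges overlap, since unstimulated knockout lies above LPS-treated and oxLDL-treated wild-type macrophages and LDL-treated knockout above LPS-treated wild-type macrophages, but within each pair the knockout held 0.538 to 0.783 of the wild-type level. The log2 change was -0.75 ± 0.11 (SE; edgeR, adjusted p = 6.03e-05), and 22.9% of the miRNAs tested were called in this comparison. Without the unstimulated knockout library it was -0.81 and without the LDL-treated wild-type library -0.68, both called.

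In dendritic cells, miR-378a-3p had 4909 CPM with LPS, 5675 CPM with oxLDL, 6208 CPM with eLDL, 5492 CPM with LDL and 8156 CPM without stimulus in the knockout, against 5178, 7173, 5724, 5857 and 7478 CPM in the wild type. The knockout was higher in 2 pairs and lower in 3, and the log2 change was 0.07 ± 0.11 (edgeR, adjusted p = 0.766), where 8.51% of miRNAs were called. The difference between the knockout effects, macrophages minus dendritic cells, was itself called, at -0.83 ± 0.15 on the log2 scale (edgeR, adjusted p = 0.00129, with 15.4% of miRNAs called), and without each library in turn it ran from -0.90 to -0.68. The stromal marker list moved with genotype too, at 0.849 to 26.7 CPM in knockout against 26.1 to 283 CPM in wild-type macrophages and 22.2 to 86.2 CPM in knockout against 69.4 to 284 CPM in wild-type dendritic cells. In knockout macrophages the endothelial and megakaryocyte marker miR-126a-3p was also called lower and the liver and serum marker miR-194-5p higher, by log2 changes of -1.51 and 0.47 (edgeR, adjusted p = 0.0106 and 0.0043). The erythroid marker miR-486-5p was called higher in knockout dendritic cells, by 0.40 (edgeR, adjusted p = 0.0105). The part of these markers in the knockout results was not tested.

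**Figure D2:**
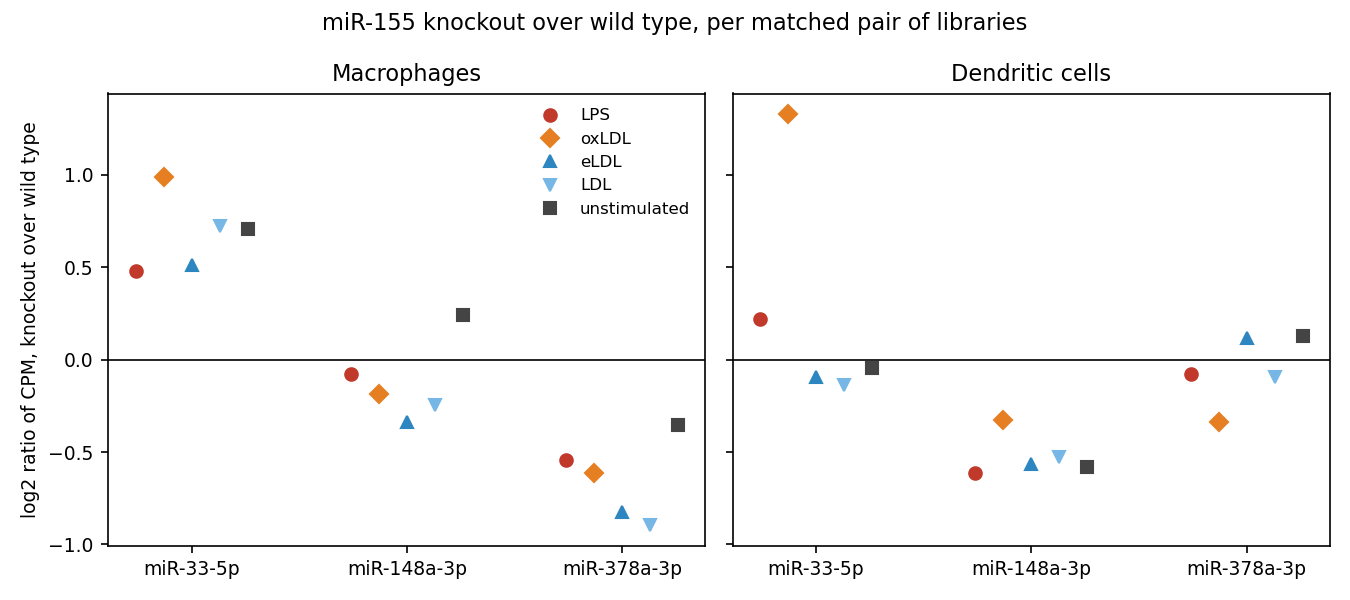
log2 ratio of CPM, miR-155 knockout over wild type, for each matched pair of libraries (same cell type and stimulus); the horizontal line marks no difference. In macrophages all 5 pairs lie below 0 for miR-378a-3p and above 0 for miR-33-5p, and in dendritic cells all 5 pairs lie below 0 for miR-148a-3p.

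miR-148a-3p was lower in knockout than in wild-type dendritic cells. With LPS, oxLDL, eLDL, LDL and no stimulus it had 6648, 9088, 9260, 8857 and 11482 CPM in the knockout, against 10189, 11410, 13687, 12741 and 17159 CPM in the wild type. The ranges overlap, but the knockout was lower in 5 of 5 pairs, at 0.652 to 0.797 of the wild-type level. The log2 change was -0.40 ± 0.09 (edgeR, adjusted p = 0.0108), and the call was lost without the LPS-treated library of either genotype (-0.35 in each case). In macrophages it had 14686, 15497, 14234, 14820 and 16412 CPM in the knockout, against 15505, 17662, 18010, 17600 and 13895 CPM in the wild type, in the same order of stimuli. The knockout was lower in 4 of 5 pairs and the unstimulated pair ran the other way; the log2 change of -0.23 ± 0.09 was not called (edgeR, adjusted p = 0.0765). It was called at -0.31 without either unstimulated macrophage library and, without unstimulated or oxLDL-treated wild-type dendritic cells, at -0.23 and -0.28. DESeq2, counts of single-miRNA sequences, added 3′ bases and a restored base 20 also gave calls, at -0.21 to -0.29, while with upper-quartile scaling it was 0.016. The difference between the cell types, 0.17 ± 0.13, was not called (edgeR, adjusted p = 0.443), but it was called at 0.40 with scaling by total miRNA reads and at 0.43 with upper-quartile scaling. The same-seed relative miR-148b-3p changed by -0.13 ± 0.09 in dendritic cells (edgeR, adjusted p = 0.412).

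miR-33-5p was higher in knockout than in wild-type macrophages. It had 13.6 CPM with LPS, 33.5 CPM with oxLDL, 38.8 CPM with eLDL, 32.9 CPM with LDL and 34.3 CPM without stimulus in the knockout, against 9.78, 16.9, 27.2, 19.9 and 21.0 CPM in the wild type. The knockout was higher in 5 of 5 pairs, by 1.39 to 1.98 times, although the LPS-treated knockout library lies below 4 of the 5 wild-type libraries. The log2 change was 0.57 ± 0.19 (edgeR, adjusted p = 0.0376), and the call was lost when any macrophage library other than LPS-treated knockout was left out, with changes of 0.48 to 0.62. It was also lost without the filter on low counts (0.57), with sequences of a single miRNA alone (0.51) and with added 3′ bases (0.52). In dendritic cells it had 6.61, 11.2, 13.9, 13.5 and 18.8 CPM in the knockout, against 5.68, 4.45, 14.8, 14.9 and 19.4 CPM in the wild type. The oxLDL pair had the highest ratio there, at 2.51 times, and the log2 change over the 5 pairs was 0.36 ± 0.20 (edgeR, adjusted p = 0.309). The difference of the knockout effects between the cell types was 0.21 ± 0.28 (edgeR, adjusted p = 0.696).

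An exact two-sided sign-flip test over 5 pairs cannot go below p = 0.063. In that exact test this value was reached for miR-33-5p and miR-378a-3p in macrophages and for miR-148a-3p in dendritic cells (adjusted over the 9 tests p = 0.0938). The same exact test gave p = 0.25 for miR-148a-3p in macrophages, p = 0.625 for miR-33-5p and p = 0.688 for miR-378a-3p in dendritic cells. All 5 pairs set the same knockout culture against the same wild-type culture, so they cannot be taken as independent either.

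LPS lowered miR-33-5p in both cell types. The LPS-treated libraries had 13.6 CPM (95% Poisson interval 11.2 to 16.5) in knockout macrophages and 9.78 CPM (7.73 to 12.2) in wild-type macrophages, against 34.3 CPM (30.7 to 38.2) and 21.0 CPM (17.8 to 24.6) in the unstimulated libraries of the same cultures. In dendritic cells they had 6.61 CPM (5.16 to 8.36) in the knockout and 5.68 CPM (4.22 to 7.49) in the wild type, against 18.8 CPM (15.98 to 22.0) and 19.4 CPM (16.3 to 23.01) without stimulus. The stimulated level was 0.292 to 0.466 of the unstimulated level in the 4 cultures, and no interval overlapped; the intervals cover counting error only. The log2 change was -1.20 ± 0.31 in macrophages (edgeR, adjusted p = 0.0112) and -1.22 ± 0.32 in dendritic cells (edgeR, adjusted p = 0.00904). In these comparisons 19.7% and 21.8% of the miRNAs tested were called, in macrophages and dendritic cells in that order. The TMM-scaled difference between the cell types was 0.03 ± 0.42 (edgeR, adjusted p = 1). Without TMM scaling, the mean log2 ratio of CPM was -1.22 in macrophages and -1.64 in dendritic cells.

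These calls depended on single libraries. In macrophages the call was lost without the unstimulated wild-type (-1.19), the unstimulated knockout (-1.14) or the LPS-treated knockout library (-1.07). In dendritic cells it was lost without the unstimulated wild-type (-0.86), the LPS-treated wild-type (-1.30) or the LPS-treated knockout library (-1.15). A lower miRNA level in culture RNA can come from fewer cells of one kind or less of the miRNA per cell, which these data cannot separate. Of the markers of other tissues, the epithelial miR-203-3p and miR-141-3p were called higher with LPS in dendritic cells, by log2 changes of 1.71 and 0.96 (edgeR, adjusted p = 0.0097 and 0.0393), and the erythroid miR-486-5p in macrophages, by 0.46 (edgeR, adjusted p = 0.0303). Their part in the LPS results was not tested.

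miR-378a-3p fell with LPS in macrophages. It had 5949 CPM in knockout and 8672 CPM in wild-type macrophages with LPS, against 14609.7 and 18648 CPM in the unstimulated libraries. The groups do not overlap, and LPS left 0.407 of the level in the knockout and 0.465 in the wild type. The log2 change was -1.19 ± 0.17 (edgeR, adjusted p = 0.000164), and -0.95 without the unstimulated knockout library that stands apart, still called. In dendritic cells, with 4909 and 5178 CPM with LPS against 8156 and 7478 CPM without stimulus in knockout and wild type, the CPM ratio was 0.602 and 0.693. The TMM-scaled log2 change was smaller than these ratios, at -0.22 ± 0.17 (edgeR, adjusted p = 0.418); with scaling by total miRNA reads it was -0.63 and was called, and that scaling also moved the median of all miRNAs tested to -0.47, against -0.05 with TMM. The LPS effect differed between the cell types by -0.97 ± 0.24 (edgeR, adjusted p = 0.0149, with 13% of miRNAs called). Without the unstimulated knockout macrophages that difference was -0.71, without LPS-treated wild-type macrophages -0.87 and without LPS-treated wild-type dendritic cells -0.89, and in each case it was no longer called. With scaling by total miRNA reads it was -0.57 and not called.

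miR-148a-3p was not called under LPS in either cell type. In macrophages it had 14686 CPM in the knockout and 15505 CPM in the wild type with LPS, against 16412 and 13895 CPM without stimulus, so the level was lower with LPS in the knockout and higher in the wild type, and the log2 change was 0.01 ± 0.14 (edgeR, adjusted p = 0.962). Dendritic cells had 6648 and 10189 CPM with LPS, against 11482 and 17159 CPM without stimulus in knockout and wild type, or 0.579 and 0.594 of the level. The TMM-scaled log2 change was -0.35 ± 0.14 (edgeR, adjusted p = 0.0945), and -0.77 with scaling by total miRNA reads, which was called. It was also called, at -0.37, without unstimulated knockout macrophages, and at -0.39 to -0.43 with upper-quartile scaling, added 3′ bases or a restored base 20. The LPS effect of macrophages minus dendritic cells was 0.35 ± 0.20 (edgeR, adjusted p = 0.288), and without that same library 0.66 and called, as it was with scaling by total miRNA reads (0.76). Its other arm miR-148a-5p fell in dendritic cells, to 26.9 and 30.2 CPM with LPS in knockout and wild type, against 56.5 and 105 CPM without stimulus, a log2 change of -1.01 ± 0.26 (edgeR, adjusted p = 0.00859). That call was lost without unstimulated (-0.64) or LPS-treated wild-type dendritic cells (-0.81).

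**Figure D3:**
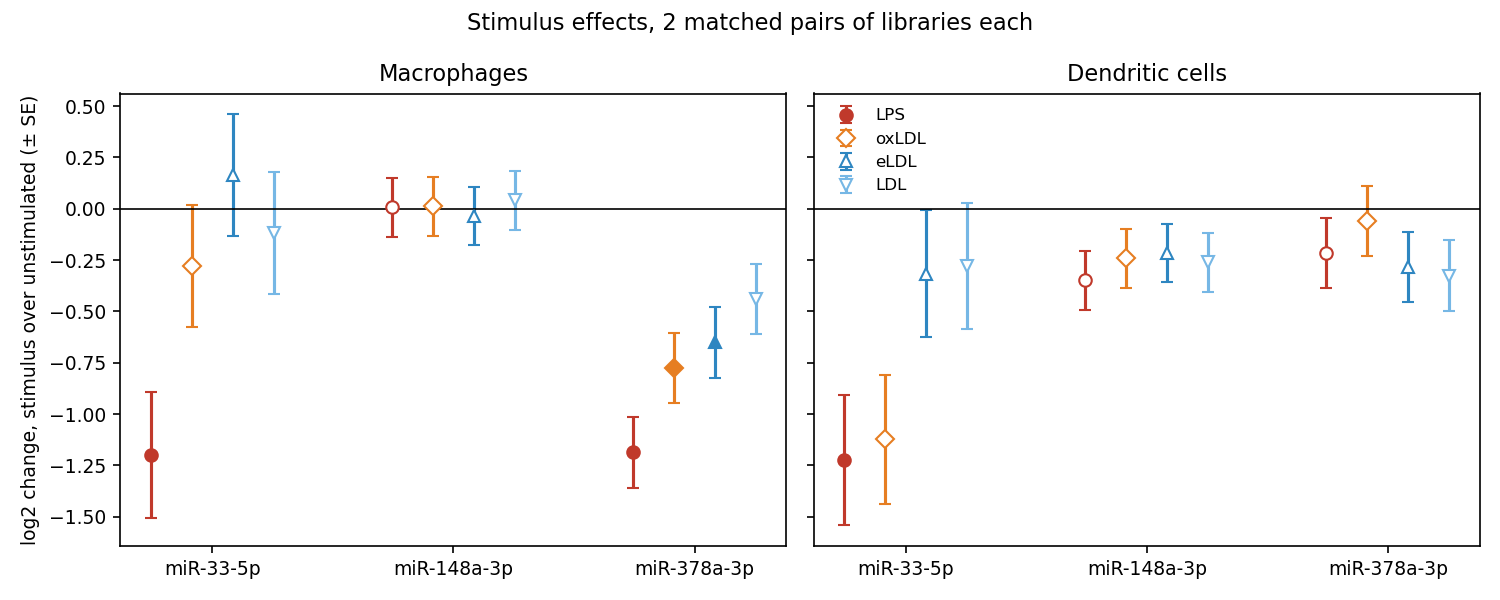
Fitted log2 change of each miRNA (edgeR, TMM scaling) for each stimulus over unstimulated cells, with its standard error, in macrophages and dendritic cells; filled symbols are called at adjusted p under 0.05. With LPS, miR-33-5p changed by -1.20 in macrophages and -1.22 in dendritic cells, while miR-378a-3p was called for LPS, oxLDL and eLDL in macrophages alone; of the differences between the cell types, that for LPS was called.

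Each lipoprotein was compared with unstimulated cells on its own. oxLDL lowered miR-378a-3p in macrophages: it had 8452 CPM in the knockout and 12938 CPM in the wild type, against 14609.7 and 18648 CPM without stimulus, without overlap. The log2 change was -0.78 ± 0.17 (edgeR, adjusted p = 0.00736, with 10.9% of miRNAs called), and the call was lost without the unstimulated knockout (-0.54), the oxLDL-treated knockout (-0.71) or the oxLDL-treated wild-type library (-0.81). Dendritic cells had 5675 and 7173 CPM in knockout and wild type, against 8156 and 7478 CPM, a log2 change of -0.06 ± 0.17 (edgeR, adjusted p = 0.922), where 0.798% of miRNAs were called. The difference between the cell types, -0.72 ± 0.24, was not called (edgeR, adjusted p = 0.119, with 2.93% of miRNAs called), but it was without oxLDL-treated knockout dendritic cells (-0.94), with upper-quartile scaling (-0.70), with DESeq2 (-0.76) and without the filter on low counts (-0.79).

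miR-33-5p under oxLDL differed between the dendritic cell cultures. In the wild type it had 4.45 CPM with oxLDL, from 38 reads, against 19.4 CPM without stimulus, a ratio of 0.229 (95% interval 0.155 to 0.330 from counting error). In the knockout it had 11.2 CPM with oxLDL against 18.8 CPM without, a ratio of 0.594 (0.457 to 0.769). The wild-type value is the lowest of miR-33-5p in all 20 libraries, and its interval (3.15 to 6.11 CPM) overlaps that of LPS-treated wild-type dendritic cells. The log2 change over both, -1.12 ± 0.31, was not called (edgeR, adjusted p = 0.172), although it was with DESeq2 (-1.13) and without the oxLDL-treated knockout library (-1.80), and the difference of the oxLDL effect between knockout and wild type over both cell types, 0.69 ± 0.44, was not called either (edgeR, adjusted p = 0.850). In macrophages miR-33-5p had 33.5 CPM in the knockout and 16.9 CPM in the wild type with oxLDL, against 34.3 and 21.0 CPM without stimulus, a log2 change of -0.28 ± 0.30 (edgeR, adjusted p = 0.672). miR-148a-3p changed by 0.01 ± 0.14 with oxLDL in macrophages and by -0.24 ± 0.14 in dendritic cells, neither called (edgeR, adjusted p = 0.958 and 0.499).

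eLDL also lowered miR-378a-3p in macrophages, to 8572 CPM in the knockout and 15172 CPM in the wild type, against 14609.7 and 18648 CPM without stimulus. The groups overlap across genotypes, and the log2 change was -0.65 ± 0.17 (edgeR, adjusted p = 0.0223, with 9.84% of miRNAs called). The call was lost without the unstimulated knockout (-0.42), the eLDL-treated knockout (-0.55) or the eLDL-treated wild-type library (-0.72). In dendritic cells the change was -0.28 ± 0.17 (edgeR, adjusted p = 0.744, with 0.266% of miRNAs called). miR-33-5p was at its highest with eLDL in both macrophage cultures, at 38.8 CPM in the knockout and 27.2 CPM in the wild type, but its log2 change over unstimulated cells, 0.16 ± 0.30, was not called (edgeR, adjusted p = 0.849). In dendritic cells it changed by -0.32 ± 0.31 with eLDL (edgeR, adjusted p = 0.818). miR-148a-3p changed by -0.04 ± 0.14 in macrophages and -0.22 ± 0.14 in dendritic cells (edgeR, adjusted p = 0.931 and 0.803).

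With LDL, edgeR with TMM scaling called none of the 3, and alternatives called 1 of them. miR-378a-3p had 9220 CPM in knockout and 17152 CPM in wild-type macrophages with LDL, against 14609.7 and 18648 CPM without stimulus, a log2 change of -0.44 ± 0.17 (edgeR, adjusted p = 0.160, with 8.24% of miRNAs called). Both LDL ratios were below 1, at 0.631 in the knockout and 0.920 in the wild type, and each of these pairs holds 1 library that stands apart. Without the LDL-treated wild-type library the change was -0.64, and without the unstimulated knockout library -0.23, neither called. It was called with upper-quartile scaling (-0.69), with DESeq2 (-0.48) and without the filter on low counts (-0.51). The other 5 LDL changes were not called: in macrophages -0.12 ± 0.30 for miR-33-5p and 0.04 ± 0.14 for miR-148a-3p, and in dendritic cells, where 0.266% of miRNAs were called, -0.28 ± 0.31, -0.26 ± 0.14 and -0.33 ± 0.17 for miR-33-5p, for miR-148a-3p and for miR-378a-3p in that order. The eLDL and LDL effects of macrophages minus dendritic cells were not called for any of the 3 either, where 2.66% and 2.39% of miRNAs were called. For eLDL they were 0.48 ± 0.43 for miR-33-5p, 0.18 ± 0.20 for miR-148a-3p and -0.37 ± 0.24 for miR-378a-3p on the log2 scale (edgeR, adjusted p of 0.572 or more). For LDL they were 0.16 ± 0.43, 0.30 ± 0.20 and -0.11 ± 0.24 in that order (edgeR, adjusted p of 0.551 or more).

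The lipoproteins were not told apart by any of the 3 miRNAs. For oxLDL over LDL, the log2 differences of miR-378a-3p were -0.34 ± 0.17 in macrophages and 0.26 ± 0.17 in dendritic cells, and that of miR-33-5p was -0.16 ± 0.30 in macrophages and -0.84 ± 0.32 in dendritic cells (edgeR, adjusted p of 0.644 or more). Those of miR-148a-3p were -0.03 ± 0.14 in macrophages and 0.02 ± 0.14 in dendritic cells. For eLDL over LDL they ran from -0.21 to 0.28 over the 3 miRNAs and both cell types. edgeR called 0% of the 376 miRNAs in these 4 comparisons; 10 to 20 miRNAs had an unadjusted p under 0.05, and DESeq2 called 0 as well. Standard errors of 0.14 to 0.32 bound what could be seen: a miss does not show that the lipoproteins act alike. The 4 stimulus effects did not differ between knockout and wild type past the threshold for any of the 3 miRNAs either, with log2 differences from -0.47 to 0.69, and edgeR called 0% of miRNAs there, with 10 to 21 at an unadjusted p under 0.05, and DESeq2 called 0 as well.

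The 3′ ends of miR-378a-3p differed between LPS-treated and unstimulated cells. Between 19.9 and 35.0% of its reads carried 1 added 3′ base, almost always A or T, that the annotated hairpin does not encode. In knockout macrophages 35.0% did so with LPS, against 22.7% without stimulus, and in wild-type macrophages 32.0% against 19.9%. The unstimulated knockout library is among those that stood apart in read length, and the wild-type pair does not include it. In knockout dendritic cells the shares were 29.1% with LPS and 23.4% without, and in wild-type dendritic cells 30.7% and 21.0%. The 95% Wilson intervals of these shares, for counting error only, reached at most 0.422 percentage points to either side. LPS gave the highest share of the 5 libraries in each of the 4 cultures, although the ranges over cultures overlap, since oxLDL-treated knockout macrophages reached 31.6%. All lipoprotein shares in macrophages were also above the unstimulated ones, at 27.1 to 31.6% with oxLDL, 23.9 to 28.5% with eLDL and 23.5 to 28.5% with LDL. The mean difference, LPS minus unstimulated, was 9.97 percentage points. This mean and the rank given next include the unstimulated knockout macrophages and were not computed without them. Among 113 miRNAs with at least 500 reads in every library the median was 0.458 points, miR-378a-3p had the largest value and 26.6% were higher with LPS in 4 of 4 cultures; this measure was looked at after the data were seen and has no test.

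**Figure D4:**
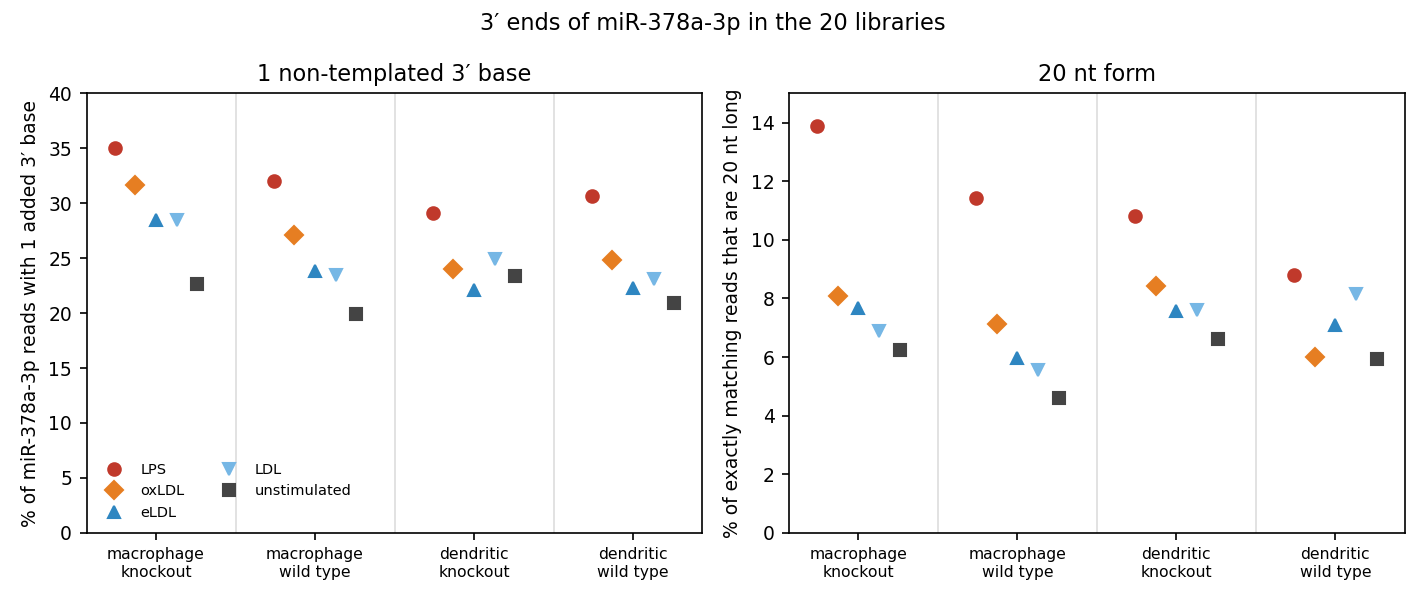
Share of miR-378a-3p reads with 1 non-templated 3′ base (left) and share of its exactly matching reads that are 20 nt long (right), 1 point per library, by culture and stimulus. LPS is the highest point of each culture in both panels, at 29.1 to 35.0% on the left and 8.80 to 13.9% on the right.

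Shorter forms of miR-378a-3p also held larger shares with LPS. The 20 nt form held 13.9% of its exactly matching reads in knockout and 11.4% in wild-type macrophages with LPS, against 6.24% and 4.59% without stimulus, with Wilson intervals of at most 0.314 points to either side. Dendritic cells had 10.8% in the knockout and 8.80% in the wild type with LPS, against 6.63% and 5.94% without. The 20 nt share of all miRNA reads moved the same way with LPS, at 4.52 and 4.24% in knockout and wild-type macrophages against 2.73 and 2.70%, and at 8.16 and 8.58% in dendritic cells against 5.17 and 5.71%; its part in this difference was not tested. The value of 6.24% comes from unstimulated knockout macrophages, which stand apart. Of their exactly matching miR-378a-3p reads 0.0807% were 18 nt long, and of those in LDL-treated wild-type macrophages 0.0658%. The other 8 macrophage libraries had 0.600 to 1.33%, and dendritic cell libraries 0.0751 to 0.296%. When reads with 1 added base were counted as well, the LPS change of miR-378a-3p in macrophages stayed called and the eLDL change did not (-0.48). The ends of miR-148a-3p varied less: 3.09 to 4.15% of its reads carried an added base and its 22 nt form held 65.2 to 78.4%. Its 19 nt form held 2.15 to 3.42% in 8 macrophage libraries, against 0.0174% and 0.0207% in the LDL-treated wild-type and unstimulated knockout macrophages that stand apart. In dendritic cell libraries it held 0.00892 to 0.0405%.

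Across the 20 libraries, the miRNA whose level was most like that of miR-33-5p was miR-30e-5p, with a Pearson r of 0.90 after the mean of each cell type was subtracted and 0.64 without that step. For miR-148a-3p it was miR-421-3p, with 0.78 and 0.25. For miR-378a-3p, miR-378b and miR-378c, which share sequences with it, were left out. Among the others it was miR-10a-3p, with 0.81 and 0.48, although its level was low, at 2.68 to 15.3 CPM. The other arm of that hairpin, miR-10a-5p, had 0.79 and 0.44. miR-301a-3p (0.87) and miR-16-5p (0.84) came next for miR-33-5p, miR-130b-5p (0.77) and miR-15b-5p (0.76) for miR-148a-3p, and miR-511-3p (0.80) for miR-378a-3p. Without the subtraction miR-130b-5p had 0.044 and miR-511-3p -0.50. After the subtraction, the 3 miRNAs were less alike among themselves, with r of 0.37 between miR-148a-3p and miR-378a-3p, 0.31 between miR-33-5p and miR-148a-3p, and 0.21 between miR-33-5p and miR-378a-3p. Without it these r were 0.70, 0.61 and 0.57 in that order. All r are over log2(CPM + 1) in libraries that share culture and stimulus, so they are descriptions without a test.

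Other miRNAs known to act on lipid handling were taken as a list of 29, of which 21 passed the filter and 26 were detected. The list was drawn up with earlier results of these data known. Between cell types, 11 were higher and 7 lower in macrophages and 3 were not called, in a comparison with 41% of all miRNAs called higher and 38% lower, with a median log2 difference of 0.19 against 0.06 for all 376. The summed level of the list went the other way, at 43306 to 63186 CPM in macrophages against 78720 to 99456 CPM in dendritic cells. That sum leans on 1 abundant member, miR-27b-3p, with 9871 to 16041 CPM in macrophages against 36684 to 61602 CPM in dendritic cells. It therefore does not describe the list as a whole. miR-9-5p had 5080 to 18422 CPM in macrophages against 4.34 to 18.9 CPM in dendritic cells, and miR-125a-5p, known from rat steroid-producing cells to repress the HDL receptor gene Scarb1, had 166 to 1363 CPM in macrophages against 5703 to 12201 CPM in dendritic cells. In knockout macrophages 2 of the 21 were called higher and 2 lower than in the wild type, beside 10.4% of all miRNAs called higher and 12.5% lower. There miR-125a-5p changed by -2.10 ± 0.13 and miR-223-3p, known to repress SCARB1 in human liver cells, by -0.75 ± 0.08 (edgeR, adjusted p = 5.33e-09 and 1.73e-06), and miR-9-5p by 0.78 ± 0.19 and miR-34a-5p by 0.59 ± 0.11 (adjusted p = 0.0073 and 0.000757). All 4 calls held without either macrophage library that stood apart, and that of miR-9-5p was lost without the filter on low counts. In knockout dendritic cells 2 were called higher and 0 lower, beside 5.32% of all called higher and 3.19% lower. These 2 were miR-26a-5p, by 0.37 ± 0.08, and miR-185-5p, known to repress the LDL receptor in human liver cells, by 0.35 ± 0.09 (edgeR, adjusted p = 0.0108 and 0.0277). Both calls were lost with scaling by total miRNA reads (0.24 and 0.22 for miR-26a-5p and miR-185-5p in that order), and each when any of several single libraries was left out, 6 for miR-26a-5p and 13 for miR-185-5p. Of the alternatives, miR-26a-5p lost its call under that 1 alone. miR-185-5p lost its call under 6, upper-quartile scaling (0.32) and the absence of a low-count filter (0.31) among them. The median over the 21 was 0.17 against 0.05 for all.

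With LPS, 6 of the 21 rose and 2 fell in macrophages (median 0.11, and 0.11 for all), beside 12.2% of all miRNAs called higher and 7.45% lower. In dendritic cells 4 rose and 2 fell (median 0.01, and -0.05 for all), beside 9.84% called higher and 12% lower. miR-223-3p fell in both, by -1.05 ± 0.13 in macrophages and -0.91 ± 0.12 in dendritic cells (edgeR, adjusted p = 4.27e-05 and 9.67e-05). miR-125a-5p went in opposite directions, by -0.74 ± 0.20 in macrophages and 1.43 ± 0.20 in dendritic cells, and that difference was called (edgeR, -2.17 ± 0.28, adjusted p = 8.84e-05). miR-96-5p rose by 1.73 ± 0.53 and miR-34a-5p by 0.98 ± 0.18 in macrophages (edgeR, adjusted p = 0.0291 and 0.000845). The call of miR-96-5p was lost without any 1 of the 4 LPS-treated and unstimulated macrophage libraries (1.59 to 1.89), and that of miR-125a-5p in macrophages without any of 5 libraries, LDL-treated wild-type macrophages among them (-0.70). Each lipoprotein lowered 1 and raised 1 of the 21 in macrophages, and these were miR-125a-5p and miR-34a-5p for oxLDL, eLDL and LDL alike, in comparisons that share the same unstimulated libraries. Each of these 6 calls held without unstimulated knockout macrophages, but both LDL calls were lost without LDL-treated wild-type macrophages (-0.84 for miR-125a-5p and 0.65 for miR-34a-5p), and each of the 6 was lost without 1 or more single libraries. Of all miRNAs, oxLDL had 5.05% called higher and 5.85% lower there, eLDL 5.05% and 4.79%, and LDL 4.26% and 3.99%. In dendritic cells oxLDL raised miR-125a-5p by 0.90 ± 0.20 (edgeR, adjusted p = 0.0457), where 0.798% of all miRNAs were called; the call was lost under 5 alternatives, total-read scaling (0.68) and upper-quartile scaling (0.73) among them, and without any of 13 libraries. eLDL and LDL gave 0 calls among the 21, beside 0.266% of all miRNAs each.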

How the data were processed

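The deposited files hold, for each of 20 libraries, distinct sequences of 18 to 45 nt with whole-number read counts, not normalized by the authors. The submitters' processing notes name CASAVA 1.8.2 without its role; the sources used here give no adapter trimming, aligner or build. Sequences were matched exactly to 1174 hairpins of GENCODE M21 (GRCm38), with arms set by RNAfold 2.7.2 and a start within 2 nt of the most abundant 5′ end. Sequences shared with other miRNAs were divided equally, except those of the 3 miRNAs described, which were counted in full.

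Counts of 376 miRNAs (at least 5 CPM in at least 2 libraries) were TMM-scaled before fitting in edgeR 4.0.16 (R 4.3.3, robust quasi-likelihood, Benjamini-Hochberg threshold 0.05). The fit was tried first on simulated libraries drawn independently, without spread between cultures. That trial cannot show how often cell type or knockout comparisons give false calls. No condition has a replicate: the terms of the fit are culture and, within each cell type, stimulus, and its 8 residual degrees of freedom come from departures of the genotypes from parallel responses. Knockout-minus-wild-type stimulus effects used a second fit with 4. p-values thus measure departures of single libraries from parallel responses, not the spread between mice or cultures of the same genotype. Poisson and binomial intervals cover counting error only. Standard errors (SE) are the log2 change over the square root of F. DESeq2 1.42.0, other scalings, filters and counting rules, and leaving out each library, were alternatives.

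The members and lists were chosen with earlier results of these data known. Named miRNAs are the 3, their other arms and same-seed relatives, miR-155-5p, the largest called changes of the lipid list, its most abundant member, and the 3 most alike per miRNA. Full counting, added 3′ bases, and the restored base 20 were chosen after seeing the data. miR-455-5p, which that rule also names, is given in the closing section.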

Additional observations from a re-analysis of the deposited data

Results flagged for a closer look

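In the comparison of macrophages with dendritic cells, the unstimulated wild-type pair of miR-148a-3p lay far from the other 9 pairs, with a log2 ratio of -0.30 (13895 CPM in macrophages and 17159 CPM in dendritic cells) where all others were above 0. The oxLDL pair of miR-33-5p in dendritic cells lay far from the other 4 pairs of knockout over wild type, with a log2 ratio of 1.33 (11.2 CPM in the knockout and 4.45 CPM in the wild type, from 99 and 38 reads). Of 9 such groups of pairs looked at, chance alone flags about 1 in 20. The knockout effect on miR-378a-3p differed between macrophages and dendritic cells by -0.83 on the log2 scale (edgeR, adjusted p = 0.00129), and its LPS effect by -0.97 (edgeR, adjusted p = 0.0149).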

How the results depend on the processing

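Each change (log2) was recomputed with other scalings, with DESeq2, without the filter on low counts, with other rules for assigning reads to miRNAs and with 1 library left out at a time. Dividing shared sequences between miRNAs, adding 1 3′ base and restoring base 20 were chosen after the data were seen. Of the values recomputed for the 3 miRNAs, 573 kept their direction and their side of the threshold, and 51 changed sign, 19 gained a call and 5 lost one. With a library left out these counts were 1340, 66, 8 and 26. Scaling by total miRNA reads set the median change of all miRNAs at -0.47 for LPS in dendritic cells, against -0.05 with TMM, at 0.50 against 0.10 for LPS between cell types and at 0.39 against 0.06 for oxLDL between cell types. Upper-quartile scaling set it at -0.28 against 0.06 for cell type, at 0.25 against 0.00464 for knockout in macrophages and at 0.21 against -0.06 for knockout between cell types. Depth limited miR-33-5p most, with 38 to 323 reads in a library. The cause of the changes listed here was not tested. The labels give no replicate numbers, so no replicate block was fitted; pairs were matched by cell type, genotype and stimulus.

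Some calls were lost. With scaling by total miRNA reads, miR-378a-3p had -0.57 for LPS between cell types. With no filter on low counts, miR-33-5p had 0.57 for knockout in macrophages. With only sequences of a single miRNA, miR-33-5p had 0.51 for knockout in macrophages. With 1 added 3′ base allowed, miR-33-5p had 0.52 for knockout in macrophages. miR-378a-3p then had -0.48 for eLDL in macrophages.

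Some were gained. With scaling by total miRNA reads, miR-148a-3p had 0.40 for knockout and 0.76 for LPS between cell types, -0.77 for LPS in dendritic cells. miR-378a-3p then had -0.63 for LPS in dendritic cells. With upper-quartile scaling, miR-148a-3p had 0.43 for knockout between cell types, -0.43 for LPS in dendritic cells. miR-378a-3p then had -0.69 for LDL in macrophages, -0.70 for oxLDL between cell types. With DESeq2, miR-33-5p had -1.13 for oxLDL in dendritic cells. miR-148a-3p then had -0.21 for knockout in macrophages. miR-378a-3p then had -0.48 for LDL in macrophages, -0.76 for oxLDL between cell types. With no filter on low counts, miR-378a-3p had -0.51 for LDL in macrophages, -0.79 for oxLDL between cell types. With only sequences of a single miRNA, miR-148a-3p had -0.29 for knockout in macrophages. With 1 added 3′ base allowed, miR-148a-3p had -0.24 for knockout in macrophages, -0.40 for LPS in dendritic cells. With base 20 restored, miR-148a-3p had -0.25 for knockout in macrophages, -0.39 for LPS in dendritic cells.

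Values that were called in neither setting changed sign as follows. With scaling by total miRNA reads, miR-33-5p had 0.0025 for eLDL over LDL in dendritic cells, 0.013 for LPS between genotypes. miR-148a-3p then had -0.012 for LPS, 0.077 for eLDL and 0.034 for oxLDL over LDL in macrophages, -0.058 for oxLDL over LDL in dendritic cells. miR-378a-3p then had -0.053 for knockout in dendritic cells, 0.070 for LDL between cell types. With upper-quartile scaling, miR-33-5p had -0.021 for eLDL in macrophages, 0.034 for LPS, 0.092 for eLDL and 0.18 for LDL between genotypes. miR-148a-3p then had 0.016 for knockout, -0.0025 for LPS, -0.15 for oxLDL, -0.20 for LDL and 0.056 for oxLDL over LDL in macrophages, -0.045 for oxLDL over LDL in dendritic cells, 0.066 for oxLDL between genotypes. With DESeq2, miR-33-5p had 0.0039 for eLDL over LDL in dendritic cells, -0.12 for LPS between cell types, 0.062 for LDL between genotypes. miR-148a-3p then had -0.063 for LPS and -0.049 for oxLDL in macrophages. With no filter on low counts, miR-33-5p had 0.022 for eLDL over LDL in dendritic cells, -0.17 for LPS between cell types. miR-148a-3p then had -0.10 for LPS, -0.093 for oxLDL and -0.025 for LDL in macrophages. With only sequences of a single miRNA, miR-33-5p had 0.013 for eLDL over LDL in dendritic cells, -0.10 for LPS between cell types, 0.022 for LPS between genotypes. miR-148a-3p then had -0.042 for LPS, -0.12 for oxLDL and -0.0056 for LDL in macrophages. miR-378a-3p then had -0.018 for knockout in dendritic cells. With any start within the arm, miR-33-5p had -0.026 for LPS between cell types, 0.012 for LPS, 0.028 for eLDL and 0.00015 for LDL between genotypes. miR-148a-3p then had -0.0013 for LPS and -0.0092 for oxLDL in macrophages. With 1 added 3′ base allowed, miR-33-5p had 0.069 for eLDL over LDL in dendritic cells, -0.18 for LPS between cell types. miR-148a-3p then had -0.059 for LPS, -0.039 for oxLDL, 0.042 for eLDL and 0.0026 for eLDL over LDL in macrophages. miR-378a-3p then had 0.017 for LDL between cell types. With base 20 restored, miR-148a-3p had -0.086 for LPS and -0.10 for oxLDL in macrophages.

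When 1 library at a time was left out, changes that crossed the threshold or 0 ran over these ranges. miR-33-5p had 0.48 to 0.63 for knockout and -1.29 to -1.07 for LPS in macrophages. miR-33-5p had -1.41 to -0.86 for LPS, -1.80 to -0.64 for oxLDL and -0.23 to 0.19 for eLDL over LDL in dendritic cells. miR-33-5p had -0.43 to 0.24 for LPS and -0.056 to 0.39 for LDL between cell types. miR-33-5p had -0.23 to 0.18 for LPS, -0.27 to 0.17 for eLDL and -0.27 to 0.15 for LDL between genotypes. miR-148a-3p had -0.49 to -0.35 for knockout, -0.48 to -0.13 for LPS, -0.032 to 0.079 for oxLDL over LDL and -0.012 to 0.12 for eLDL over LDL in dendritic cells. miR-148a-3p had -0.31 to -0.17 for knockout, -0.19 to 0.29 for LPS and oxLDL, -0.24 to 0.24 for eLDL, -0.18 to 0.30 for LDL, -0.16 to 0.090 for oxLDL over LDL and -0.20 to 0.090 for eLDL over LDL in macrophages. miR-148a-3p had 0.052 to 0.66 for LPS and -0.037 to 0.48 for eLDL between cell types. miR-148a-3p had -0.49 to 0.043 for LPS, -0.47 to 0.060 for oxLDL, -0.46 to 0.071 for eLDL and -0.50 to 0.028 for LDL between genotypes. miR-378a-3p had -0.055 to 0.17 for knockout, -0.35 to 0.19 for oxLDL and -0.16 to 0.22 for eLDL over LDL in dendritic cells. miR-378a-3p had -0.93 to -0.54 for oxLDL, -0.81 to -0.42 for eLDL and -0.40 to 0.039 for eLDL over LDL in macrophages. miR-378a-3p had -1.15 to -0.71 for LPS, -0.94 to -0.46 for oxLDL and -0.32 to 0.12 for LDL between cell types. miR-378a-3p had -0.42 to 0.088 for eLDL between genotypes. The number of called miRNAs then ran over 17 to 32 for knockout, 52 to 92 for LPS, 0 to 10 for oxLDL, 0 to 2 for eLDL, 0 to 3 for LDL and 0 to 4 for oxLDL over LDL in dendritic cells, 3 to 48 for oxLDL, 0 to 41 for eLDL and 5 to 32 for LDL in macrophages, 29 to 59 for LPS, 6 to 19 for oxLDL, 1 to 21 for eLDL and 2 to 16 for LDL between cell types, 0 to 3 for LPS, eLDL and LDL and 0 to 1 for oxLDL between genotypes.

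Counts of called miRNAs moved by over 1.5 times. With DESeq2 they were 52 for knockout, 5 for oxLDL, 2 for eLDL and 7 for LDL in dendritic cells, 31 for oxLDL and 19 for eLDL and LDL between cell types. With upper-quartile scaling they were 138 for knockout in macrophages, 0 for oxLDL, eLDL and LDL in dendritic cells. With scaling by total miRNA reads they were 149 for LPS and 0 for oxLDL, eLDL and LDL in dendritic cells, 91 for LPS, 28 for oxLDL and 5 for eLDL between cell types. With no filter on low counts they were 13 for oxLDL, 4 for eLDL, 8 for LDL and 3 for oxLDL over LDL in dendritic cells, 1 for oxLDL over LDL in macrophages, 23 for oxLDL, 17 for eLDL and 14 for LDL between cell types, 2 for eLDL between genotypes. With 1 added 3′ base allowed they were 0 for oxLDL, eLDL and LDL in dendritic cells. With base 20 restored they were 1 for oxLDL and 0 for eLDL and LDL in dendritic cells. With only sequences of a single miRNA they were 0 for LDL in dendritic cells.

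The split of called miRNAs into higher and lower moved by over 10 percentage points as follows. For cell type, 154 were higher and 143 lower, but 118 and 179 with upper-quartile scaling. For knockout in dendritic cells, 20 were higher and 12 lower, but 11 and 21 with scaling by total miRNA reads and 19 and 19 with 1 added 3′ base allowed. For knockout in macrophages, 39 were higher and 47 lower, but 63 and 42 with scaling by total miRNA reads and 104 and 34 with upper-quartile scaling. For knockout between cell types, 18 were higher and 40 lower, but 44 and 26 with scaling by total miRNA reads and 47 and 25 with upper-quartile scaling. For LPS in dendritic cells, 37 were higher and 45 lower, but 26 and 123 with scaling by total miRNA reads, 63 and 50 with DESeq2 and 51 and 37 with no filter on low counts. For LPS in macrophages, 46 were higher and 28 lower, but 39 and 37 with base 20 restored. For oxLDL in dendritic cells, 3 were higher and 0 lower, but 4 and 1 with DESeq2 and 11 and 2 with no filter on low counts. For oxLDL in macrophages, 19 were higher and 22 lower, but 28 and 14 with scaling by total miRNA reads. For eLDL in dendritic cells, 1 was higher and 0 lower, but 1 and 1 with DESeq2 and 3 and 1 with no filter on low counts. For eLDL in macrophages, 19 were higher and 18 lower, but 26 and 13 with scaling by total miRNA reads, 13 and 23 with upper-quartile scaling and 23 and 14 with 1 added 3′ base allowed. For LDL in dendritic cells, 1 was higher and 0 lower, but 3 and 4 with DESeq2 and 4 and 4 with no filter on low counts. For LDL in macrophages, 16 were higher and 15 lower, but 4 and 22 with upper-quartile scaling and 13 and 19 with any start within the arm. For LPS between cell types, 29 were higher and 20 lower, but 79 and 12 with scaling by total miRNA reads, 28 and 35 with DESeq2, 22 and 28 with no filter on low counts and 23 and 27 with only sequences of a single miRNA. For oxLDL between cell types, 3 were higher and 8 lower, but 22 and 6 with scaling by total miRNA reads and 6 and 10 with upper-quartile scaling. For eLDL between cell types, 0 were higher and 10 lower, but 2 and 3 with scaling by total miRNA reads, 6 and 13 with DESeq2, 3 and 14 with no filter on low counts and 2 and 6 with 1 added 3′ base allowed. For LDL between cell types, 1 was higher and 8 lower, but 4 and 5 with scaling by total miRNA reads, 6 and 13 with DESeq2, 4 and 10 with no filter on low counts and 2 and 7 with 1 added 3′ base allowed.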

Other observations

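miR-455-5p, a lipid list member known to act on Scarb1 in rat steroid-producing cells, had most of its reads in macrophages. It had 740 and 440 reads in LPS-treated knockout and wild-type macrophages, against 174 and 36 reads without stimulus. With lipoproteins it had 354 to 390 reads in knockout and 317 to 553 reads in wild-type macrophages. In dendritic cells it had 94 and 25 reads with LPS in knockout and wild type, against 0 and 4 without stimulus, and 9 reads with LDL in the wild type; the other 5 libraries had 0. The log2 change with LPS in macrophages was 2.74 ± 0.73 (edgeR, adjusted p = 0.0279). It was 3.84 without unstimulated knockout and 2.81 without LDL-treated wild-type macrophages, both called. The call was lost with DESeq2 (2.71), without the filter on low counts (2.63) and without unstimulated wild-type (2.14), LPS-treated wild-type (2.94) or LPS-treated knockout macrophages (2.52). In dendritic cells, with at most 8.88 CPM in any library, the log2 change with LPS was 4.74 (edgeR, adjusted p = 0.0185). That call was lost without the filter on low counts (4.85) and without unstimulated (3.29) or LPS-treated knockout dendritic cells (2.77).

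miR-33-3p, the other arm of miR-33, held a varying share of the hairpin's reads, without a common order over stimuli. In dendritic cells it held 21.9% in the LPS-treated wild type (14 of its reads; 95% Wilson interval 13.5 to 33.4%), 19.5% in the oxLDL-treated knockout (13.5 to 27.4%) and 19.1% in the eLDL-treated knockout (12.8 to 27.4%), and 0 to 4.29% in the other 7. In macrophages it held 1.92 to 15.7%. The unread base 20 of the macrophage libraries was found in these shares: 8.23 to 8.54% of the miR-148a-3p reads of 20 nt or more carried it, 7.83 to 8.40% of those of miR-378a-3p and 5.96 to 15.1% of those of miR-33-5p, against 7.89 to 8.28% of all miRNA reads. Restoring these reads kept every call of the 3 miRNAs and added 2 for miR-148a-3p.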
